A study of Mus musculus with 10 samples.

Results

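The genes described here keep protein folding in the endoplasmic reticulum (ER) in balance. They are the chaperones of the ER lumen, the sensors and transcription factors of the unfolded protein response (UPR), the machinery of ER-associated degradation (ERAD), and selected genes of protein translocation, vesicle export and UFMylation, which is the attachment of the small modifier UFM1. They were chosen by name, as the rows of the deposited expression table that carry the symbols of 36 genes. All 36 were found among the 15075 genes of the table. RNA sequencing was performed on interscapular brown adipose tissue (iBAT) of 5 Control and 5 AdCKO mice on the C57BL/6 strain, aged 20 weeks and housed at room temperature. AdCKO mice carry Adipoq-Cre, which is driven by the adiponectin promoter and is active in adipocytes, and a Crls1 allele with loxP sites around exon 4 (in the labels, knockout of CRLS1). Control mice carry the same floxed allele without Cre (in the labels, wild-type). CRLS1 is the mitochondrial enzyme that makes cardiolipin, and cells of iBAT that carry no active Cre keep the gene. All values of expression below are normalized reads per kb of counted exon, a level corrected for gene length.

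Proteins that enter the secretory pathway fold in the ER with the help of chaperones such as BiP. When unfolded proteins accumulate, the sensors IRE1, ATF6 and PERK start the UPR: IRE1 splices the Xbp1 mRNA, ATF6 is cut by Golgi proteases to release a transcription factor, and PERK phosphorylates eIF2 alpha, which lowers translation and raises ATF4 and CHOP (also called CHOP-10, encoded by Ddit3). Spliced XBP1 and cleaved ATF6 raise chaperone and ERAD genes through elements in their promoters, and ERAD sends proteins that fail to fold to the proteasome. Adipocytes use this pathway for secreted proteins such as adiponectin and lipoprotein lipase.

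The promoter elements of the UPR are shown first, because they are shared by members whose levels moved differently. RefSeq promoters (build GRCm38.p6, 250 bases before to 50 bases after each annotated start) were found for 31 of the 36 members, and Atf6, Derl1, Hyou1, Manf and Sec61a1 had no entry. The ER stress response element (ERSE, which is CCAAT, 9 bases of any kind and CCACG, searched like all motifs here on both strands) was found in 8 of these 31 promoters (25.8%) and in 39 of all 32851 promoters of the same length (0.119%). Hsp90b1 held 2 copies. Members are counted by gene and all promoters by entry, and the members' own entries are among all promoters. Each window is written 5′ to 3′ on the strand of the element with 8 flanking bases on each side, and capitals mark the fixed letters of the element.
Hspa5, chr2:34772017-34772051, plus strand: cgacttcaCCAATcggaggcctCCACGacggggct
Hsp90b1 (first copy), chr10:86705630-86705664, minus strand: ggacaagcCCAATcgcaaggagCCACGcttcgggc
Hsp90b1 (second copy), chr10:86705525-86705559, plus strand: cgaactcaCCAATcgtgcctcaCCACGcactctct
Calr, chr8:84847067-84847101, plus strand: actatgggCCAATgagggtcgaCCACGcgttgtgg
Canx, chr11:50325792-50325826, minus strand: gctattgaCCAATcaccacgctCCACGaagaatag
Creld2, chr15:88819512-88819546, minus strand: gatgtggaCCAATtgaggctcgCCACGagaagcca
Dnajc3, chr14:118937819-118937853, plus strand: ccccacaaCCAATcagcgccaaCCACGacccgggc
Syvn1, chr19:6046524-6046558, plus strand: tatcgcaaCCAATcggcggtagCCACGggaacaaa
Derl3, chr10:75893234-75893268, minus strand: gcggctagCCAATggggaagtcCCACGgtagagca

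The element of Hspa5 lay 65 to 47 bases before the annotated start, and that of Syvn1 44 to 26 bases before it. The related ERSE-II (ATTGG, 1 base of any kind and CCACG) was found in 2 members, Herpud1 and Dnajb11, and in 12 of all promoters (0.0365%). One form of the UPR element bound by XBP1 (UPRE, TGACGTGG) was found in Sec24d and Vcp and in 222 promoters (0.676%). These windows are shown because each of these pairs holds 1 member called in AdCKO iBAT and 1 that was not.
Dnajb11, chr16:22857844-22857870, plus strand: cggcggcgATTGGcCCACGcctggctg
Sec24d, chr3:123267462-123267485, plus strand: cgggcgccTGACGTGGcactagca
Vcp, chr4:43000606-43000629, minus strand: cggccaatTGACGTGGcgttacta

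Herpud1 was the single member with the C/EBP-ATF composite (TGATGCAA), the kind of site that CHOP and ATF4 bind together with C/EBP proteins, which 294 of all promoters held (0.895%). Its 250 bases before the start are shown whole, because they hold this composite on the opposite strand together with the ERSE-II, both in capitals.
Herpud1, chr8:94386179-94386428, plus strand: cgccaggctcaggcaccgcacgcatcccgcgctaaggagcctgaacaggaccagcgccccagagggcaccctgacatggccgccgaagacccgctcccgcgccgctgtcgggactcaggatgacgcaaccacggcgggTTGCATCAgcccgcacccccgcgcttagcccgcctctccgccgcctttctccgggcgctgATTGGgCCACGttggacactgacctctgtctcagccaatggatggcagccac

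The CRE (TGACGTCA) was in no member promoter and in 588 of all promoters (1.79%). The pentamer CCACG, which is also the end of ERSE and ERSE-II, was in 25 of the 31 member promoters (80.6%) and in 32.8% of all promoters. The pentamer CCAAT, also the start of ERSE and read backwards in ERSE-II, was in 22 of 31 (71%) and in 37.4% of all. A match describes these letters in this window and no more.

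Levels were compared between AdCKO and Control with limma on log2(value + 1) in a two-sided test, adjusted by Benjamini-Hochberg across the 11244 genes that had a mean of at least 10 in either group. The threshold for a call was 0.01 for the adjusted p, and all adjusted p-values below are from this fit. On this scale the change of low genes is understated. Crls1 itself measured 1291, 927, 813, 1101 and 1169.8 in Control libraries 1 to 5 and 193, 195, 249, 208 and 242 in AdCKO libraries 1 to 5. The groups did not overlap, and AdCKO kept 20.5% of the Control mean. Library totals after normalization were 7615403 to 8171138 reads in Control, all above the 5419800 to 5843024 of AdCKO, and the depth before normalization is unknown.

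Markers of other cell types moved between the groups. Summed over 8 measured macrophage markers, the level was 426 to 1206 in Control and 5748 to 7844 in AdCKO. Summed over 7 fibroblast and preadipocyte markers, it was 1057 to 1332 and 4185 to 5963. The 8 brown adipocyte markers summed to 51850 to 76182 in Control and 16459 to 36614 in AdCKO, and the 8 general adipocyte markers to 172614 to 208174 and 119743 to 141294. All 8 measured macrophage and 6 of 7 fibroblast markers were called higher, while 5 of 8 brown adipocyte and 4 of 8 adipocyte markers were called lower and 1 adipocyte marker, Retn, higher. For 9 measured plasma and B cell markers the sum was 29.0 to 34.1 in Control and 32.2 to 182 in AdCKO, of which AdCKO 1 held the highest, and 0 of 3 tested were called. The plasma cell gene Igj measured 4.76 to 8.47 in Control and 9.86 to 58.9 in AdCKO (log2 fold change 1.29, adjusted p = 0.0104). Mzb1 and Tnfrsf17, also plasma cell genes, had means under 10 in both groups, with values of 1.90 to 2.02 and 2.03 to 3.33 for Mzb1 and of 1.02 to 1.16 and 1.01 to 1.13 for Tnfrsf17. The 7 T and NK cell markers summed to 35.5 to 69.5 and 54.3 to 195 (2 of 4 tested called higher), and the 7 endothelial markers to 1458 to 1819 and 1526 to 2049 (2 of 7 called higher). The libraries AdCKO 1, 2 and 4 stood apart in 8 skeletal muscle markers, which summed to 6086, 23081 and 8973 there, against 147 and 131 in AdCKO 3 and 5 and 99.1 to 130.1 in Control. Results are therefore also given for AdCKO 3 and 5 alone against all 5 Control libraries, an alternative chosen after seeing the data. AdCKO 3 and 5 also had the highest brown adipocyte sums of AdCKO (29404 and 36614, against 16459 to 22664 in AdCKO 1, 2 and 4). This alternative thus differs in more than muscle markers, and it leaves 2 AdCKO libraries. The part that these other cells have in the results was not tested, and fewer cells of a type and less RNA per cell cannot be told apart in these bulk samples.

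Of the 36 members, 35 passed the filter and Derl3 did not. In AdCKO iBAT 18 members were called higher, 2 were called lower (Mbtps1 and Herpud1) and 15 were not called. Over all 11244 tested genes, 25.6% were called higher and 28% lower (53.6% in either direction). The median log2 fold change was 0.35 over the 35 members and -0.011 over all tested genes. For 17 of the 18 members called higher, the lowest AdCKO library was above the highest Control library, a separation that 24.5% of all tested genes showed. With AdCKO 3 and 5 alone, 14 of the 18 were called higher (all but Creld2, Dnajc10, Xbp1 and Sel1l), all 18 had a fold change above 0, no member was called lower, and the members' median was 0.27, while 18.7% of all tested genes were called higher and 19.3% lower. The members' summed level was 8205 to 8449 in Control and 10620.4 to 11559.5 in AdCKO. As the AdCKO totals were lower, member reads made up 0.304% to 0.321% of the normalized reads in Control and 0.568% to 0.595% in AdCKO.

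**Figure D1:**
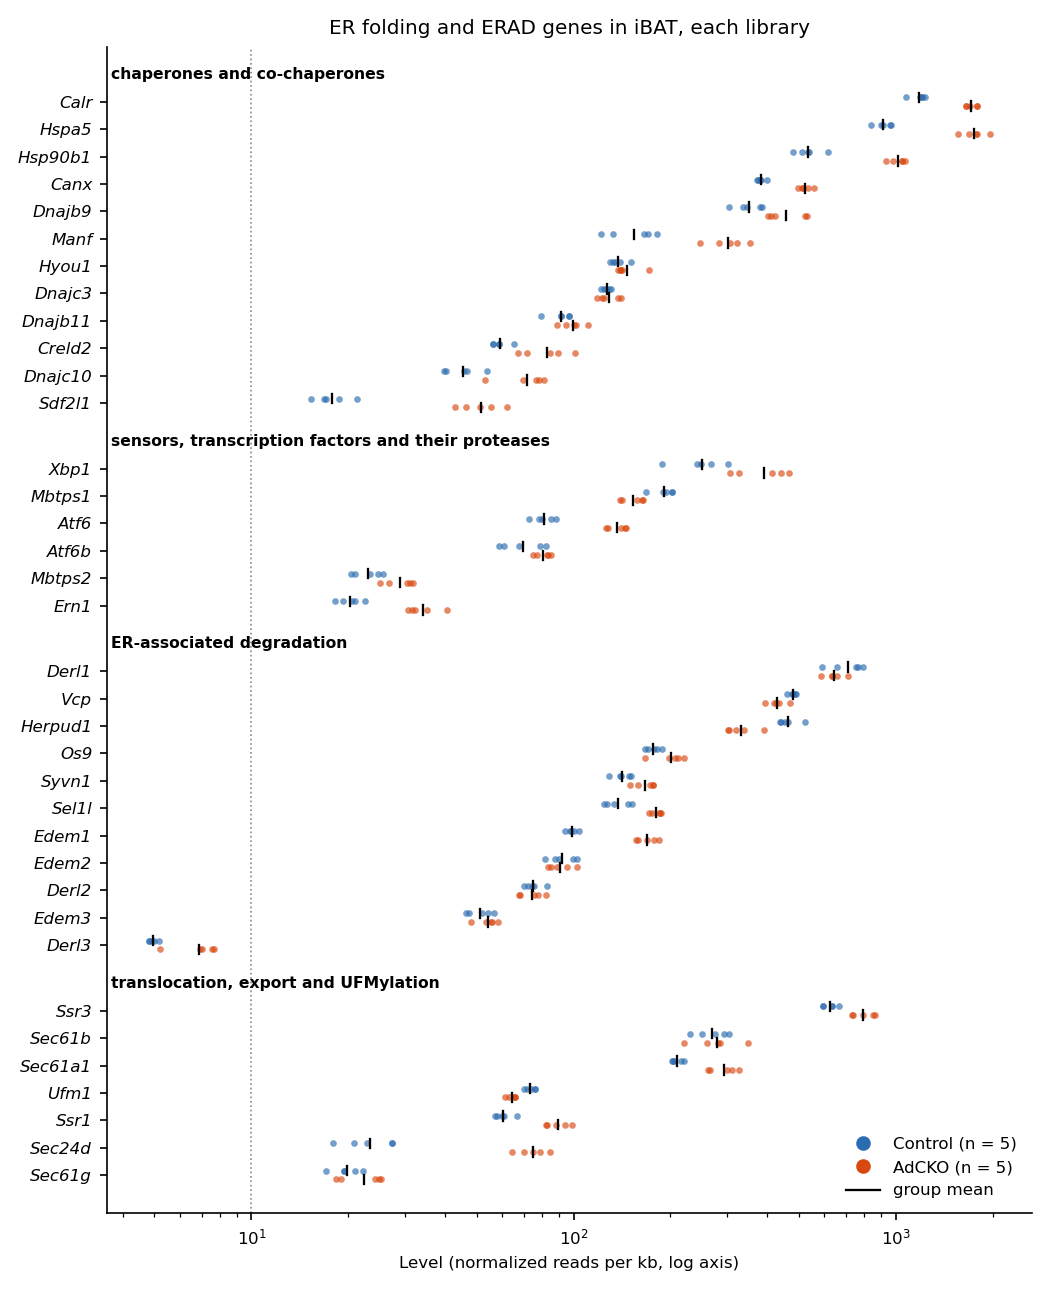
Level of each of the 36 genes in each library, in normalized reads per kb on a log axis, with Control in blue, AdCKO in orange (5 libraries each) and the group mean as a black bar. The dotted line marks the filter at 10, which Derl3 did not reach, and 17 of the 18 genes called higher have all AdCKO points above all Control points.

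Because the AdCKO totals were lower, the split of calls depended on the scaling. With every library set to 1 common total, the median of all tested genes moved up by 0.47, 60.6% of all tested genes were called higher and 9.77% lower, and 33 members were called higher and 0 lower. Relative to the median of all genes the members' median was then 0.37. With quantile normalization 22.5% of all tested genes were called higher and 31.1% lower, 19 members were called higher and 2 lower (Herpud1 and Ufm1, in place of Mbtps1), and the members' median stood 0.50 above that of all genes. All 18 members called higher were also called higher under both of these scalings. With 1 common total this was near certain beforehand, because that scaling raises the AdCKO values by construction. Relative to the median of all genes, all 18 stayed above 0 there.

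**Figure D2:**
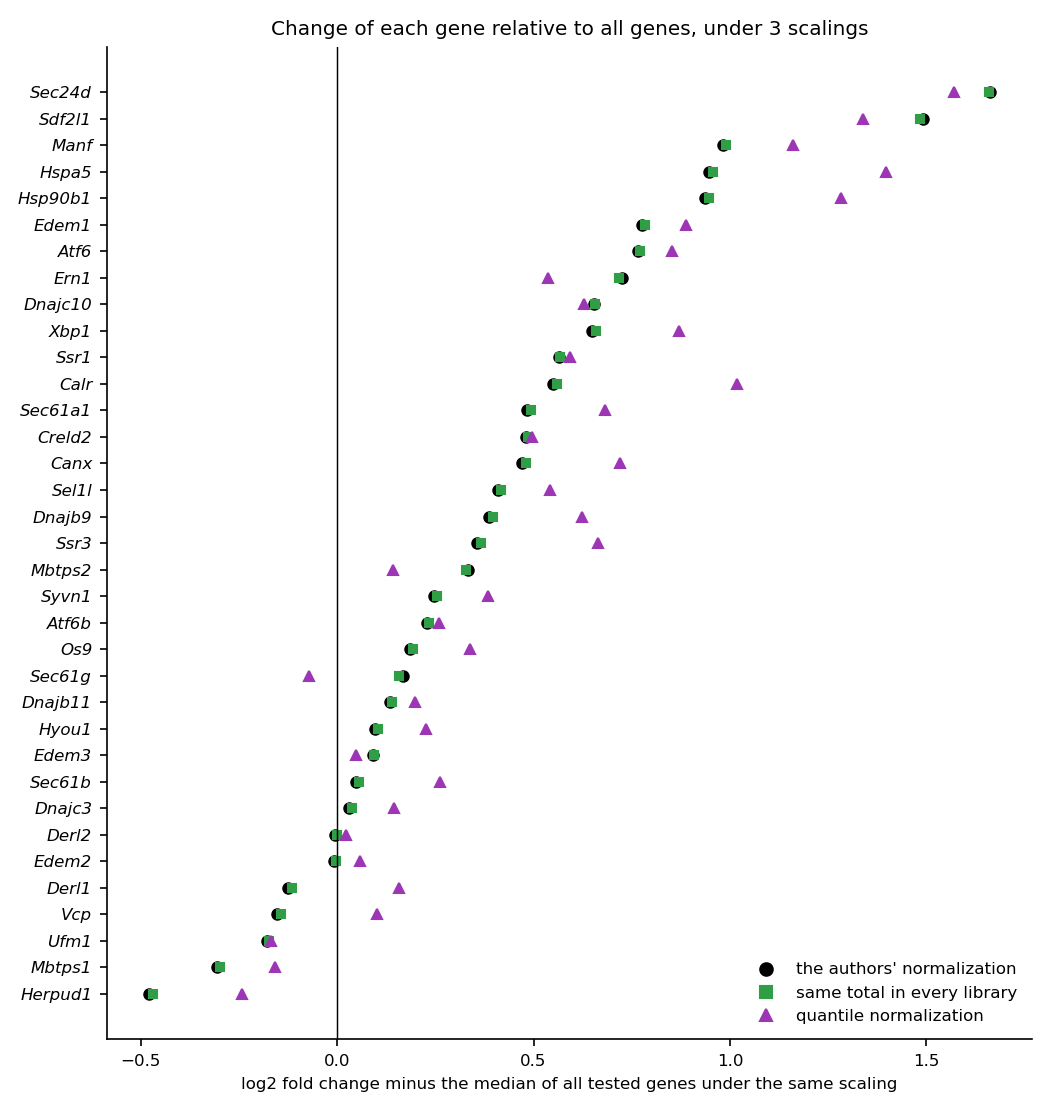
Log2 fold change of each of the 35 tested genes minus the median of all tested genes, under the authors' normalization (circles), the same total in every library (squares) and quantile normalization (triangles). Circles and squares nearly coincide, Sec24d and Sdf2l1 lie farthest to the right under the authors' normalization, and Herpud1 lies farthest to the left under each of the 3.

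Chaperones and their partners of the ER lumen were higher in AdCKO iBAT: of 12 tested, 9 were called higher, 0 lower and 3 were not called, with a median log2 fold change of 0.50. The most abundant were Calr and Hspa5, and together with Hsp90b1 and Canx they rose by 1.38 to 1.92 times in the mean. Hspa5, which encodes BiP, the Hsp70 chaperone that binds unfolded chains and holds the UPR sensors inactive, measured 968, 840.2, 901, 914 and 962 in Control libraries 1 to 5 and 1565, 1788, 1781, 1684 and 1963 in AdCKO libraries 1 to 5. The lowest AdCKO library stood well above the highest Control library, and AdCKO 5 was the highest of all. The mean rose 1.92 times, with a log2 fold change of 0.93 (SE 0.076, n = 5 in each group, limma adjusted p = 5.48e-07). In AdCKO 3 and 5 alone the change was 1.03 (adjusted p = 1.91e-05).

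Hsp90b1, the ER form of Hsp90 also called GRP94, measured 616, 481, 535, 537 and 512 in Control and 936, 1048, 984, 1071 and 1049 in AdCKO. The groups did not overlap, and Control 1 was the highest of its group. Hsp90b1 rose 1.90 times (log2 fold change 0.93, SE 0.076, adjusted p = 5.88e-07), and 15.7% of its annotated exon bases on the files' build are shared with other annotated genes. The ratio of Hspa5 to Hsp90b1 within a library moved by 0.0090 on the log2 scale (95% interval -0.13 to 0.15).

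Calr and Canx encode calreticulin and calnexin, the soluble and the membrane-bound lectin that hold glycoproteins while they fold. Calr measured 1078, 1232, 1208, 1192 and 1205 in Control and 1702, 1786, 1658, 1786 and 1657 in AdCKO. Canx measured 400.0, 381, 371, 374 and 379.7 in Control and 499, 513, 557, 536 and 516 in AdCKO. Neither gene had overlapping groups, and both were tight among replicates, with Control 1 the lowest for Calr. Calr rose by a log2 fold change of 0.54 (SE 0.064, adjusted p = 1.33e-05) and Canx by 0.46 (SE 0.056, adjusted p = 1.61e-05). Their ratio moved by 0.079 (95% interval -0.069 to 0.23), and by 0.30, past the threshold, with quantile normalization (exact permutation test, adjusted p = 0.0227). In Control, Calr had the highest mean of the 36 genes at 1183 ± 60.2 (SD, n = 5) and Hspa5 came second at 917 ± 51.9. In AdCKO, Hspa5 stood at 1756 ± 147 and Calr at 1717 ± 64.8, a gap smaller than the spread of either group.

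The largest change among chaperone genes was that of a low one, except with quantile normalization, where Hspa5 (1.32) exceeded Sdf2l1 (1.26). Sdf2l1, which encodes a partner of BiP and its J-domain protein ERdj3, measured 15.3, 21.3, 18.7, 16.8 and 17.001 in Control and 55.3, 62.3, 42.8, 51.4 and 46.2 in AdCKO. Every AdCKO library was at least 2 times as high as the highest Control library. Sdf2l1 rose 2.90 times (log2 fold change 1.48, SE 0.11, adjusted p = 4.02e-07). Dnajb11, which encodes ERdj3 itself, measured 79.3, 91.3, 97.0, 96.9 and 91.7 in Control and 101, 102, 89.1, 94.9 and 111 in AdCKO. Its groups overlapped, and its log2 fold change of 0.12 (95% interval -0.047 to 0.30) was not called (adjusted p = 0.182). The within-library ratio of Sdf2l1 to Dnajb11 rose by 1.36 (95% interval 1.09 to 1.62, exact permutation p = 0.0079, adjusted over 20 ratios 0.026).

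Manf and Creld2 encode small secreted ER proteins that are known to be induced by ER stress. Manf measured 122, 169.8, 132, 182 and 166 in Control and 247, 322, 306, 283 and 352 in AdCKO. Creld2 measured 56.1, 58.8, 65.4, 56.1 and 58.7 in Control and 84.7, 101, 71.7, 89.6 and 67.1 in AdCKO. The Manf groups were far apart, whereas for Creld2 AdCKO 5 and AdCKO 3 came close to Control 3. Manf rose 1.96 times (log2 fold change 0.97, SE 0.12, adjusted p = 2.44e-05) and Creld2 1.41 times (0.47, SE 0.11, adjusted p = 0.00192). In AdCKO 3 and 5 alone the change of Creld2 was 0.23 and was not called (adjusted p = 0.0912), while that of Manf was 1.099 (adjusted p = 0.000232). An exon overlap with the antisense gene Vprbp covers 4.14% of the annotated Manf exon bases, and the counting is not stated to use strand.

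The J-domain co-chaperones, which hand substrates to BiP, differed among themselves. Dnajb9 (ERdj4, which favours degradation of misfolded clients and restrains IRE1) measured 379.7, 337, 305, 386 and 347 in Control and 422, 411, 529, 401 and 525 in AdCKO. Its groups did not overlap, but AdCKO 4 stood close to Control 4. Dnajb9 rose by 0.38 (SE 0.10, adjusted p = 0.0057), the weakest of the 18 calls, and the call was lost when any 1 of Control 2, 3 or 5 or AdCKO 3 or 5 was left out (adjusted p up to 0.0154). In AdCKO 3 and 5 alone, its 2 highest libraries, the change was 0.59 and was called (adjusted p = 0.00108). Dnajc10 (ERdj5, a disulfide reductase that works in ERAD) measured 45.6, 39.7, 54.0, 46.8 and 40.2 in Control and 78.0, 69.7, 76.3, 81.0 and 53.0 in AdCKO. It is the 1 member called higher whose groups overlapped, since AdCKO 5 lay just below Control 3. Dnajc10 rose by 0.64 (SE 0.12, adjusted p = 0.00054), and in AdCKO 3 and 5 alone the value was 0.49 (adjusted p = 0.0279).

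Dnajc3 (p58IPK, a co-chaperone and inhibitor of PERK) ranged from 122 to 131 (Control) and from 118 to 140.1 (AdCKO). Hyou1 (GRP170, the nucleotide exchange factor of BiP) measured 139, 151, 135, 129.8 and 132 in Control and 138, 142, 139, 140.1 and 171 in AdCKO. Both overlapped between groups, and for Hyou1 a single library, AdCKO 5, stood above the rest. The log2 fold change was 0.020 for Dnajc3 (95% interval -0.12 to 0.16, adjusted p = 0.797) and 0.085 for Hyou1 (-0.078 to 0.25, adjusted p = 0.336). The ratio of Dnajc3 to Dnajc10 fell by 0.62 (95% interval -0.98 to -0.27, exact permutation p = 0.016, adjusted 0.04), and missed the threshold with quantile normalization (-0.48).

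**Figure D3:**
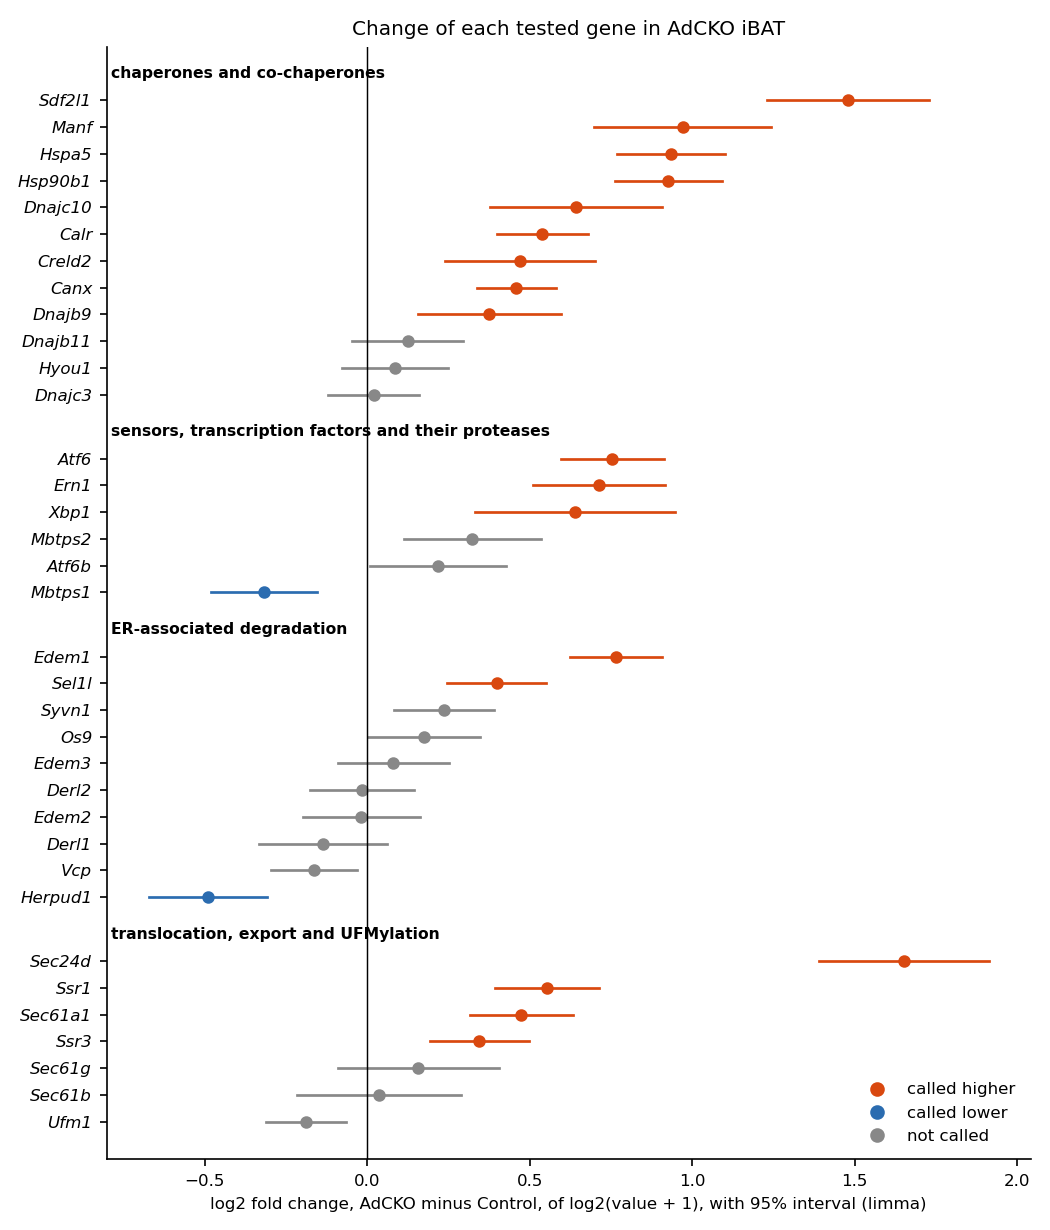
Log2 fold change of each of the 35 tested genes, AdCKO minus Control on log2(value + 1), with 95% intervals from limma (5 libraries in each group) and colour for the call. In the chaperone block 9 of 12 genes are called higher and none lower, whereas 7 of the 10 tested ERAD genes are not called.

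Among the UPR sensors, transcription factors and their proteases, 3 of 6 were called higher, 1 lower and 2 were not called, with a median log2 fold change of 0.48. All 6 belong to the IRE1 and ATF6 arms by the choice of the list, and the PERK arm is given in a separate list below. Atf6 measured 78.3, 84.8, 72.5, 88.0 and 80.0 in Control and 126, 128, 145, 140.0 and 146 in AdCKO. All AdCKO libraries lay above all Control libraries with a wide gap. Atf6 rose 1.70 times (log2 fold change 0.75, SE 0.072, adjusted p = 2.11e-06). Its paralog Atf6b, which encodes a weaker activator, measured 58.9, 82.1, 67.7, 60.9 and 78.4 in Control and 82.7, 85.2, 74.7, 83.1 and 77.0 in AdCKO. Those groups overlapped, Control 2 and 5 lying within the AdCKO range, and Atf6b was not called (0.22, 95% interval 0.0073 to 0.43, adjusted p = 0.0646). The ratio of Atf6 to Atf6b rose by 0.54 (95% interval 0.24 to 0.83, exact permutation p = 0.0079, adjusted 0.026).

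Ern1, which encodes IRE1 alpha, the kinase and RNase that splices Xbp1, measured 20.9, 19.3, 18.2, 22.5 and 20.6 in Control and 35.1, 31.5, 30.7, 32.3 and 40.4 in AdCKO. Its groups did not overlap. Ern1 rose by 0.71 (SE 0.093, adjusted p = 2.80e-05), a mean 1.68 times that of Control. Xbp1 measured 189, 302, 268, 248 and 242 in Control and 412, 439, 327, 466 and 307 in AdCKO. The groups did not overlap, but AdCKO 5 and 3 lay near Control 2, and the spread was wide in both groups. Xbp1 rose by 0.64 (SE 0.14, adjusted p = 0.00168), and by 0.36 with no call in AdCKO 3 and 5 alone (adjusted p = 0.0733). The values give total Xbp1 mRNA and do not separate the spliced from the unspliced form. The ratio of Xbp1 to Ern1 changed sign between settings and had a wide interval (-0.076, 95% interval -0.58 to 0.43).

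Of the Golgi proteases that activate ATF6, Mbtps1 was called lower and Mbtps2 was not called. Mbtps1, the site-1 protease that makes the first cut, measured 194, 202, 168, 203 and 190.1 in Control and 163, 139.5, 142, 157 and 165 in AdCKO. Every AdCKO library lay below every Control library, a separation that 26.4% of all tested genes showed. Mbtps1 fell by 0.32 on the log2 scale (SE 0.075, adjusted p = 0.00266). On setting all libraries to 1 total the value turned to 0.16 (adjusted p = 0.0528), which is -0.30 relative to the median of all genes. It was -0.24 with quantile normalization (adjusted p = 0.0128) and -0.32 in AdCKO 3 and 5 alone (adjusted p = 0.0303). Mbtps2, the site-2 protease that makes the second cut, measured 24.6, 20.3, 23.4, 25.7 and 20.9 in Control and 26.7, 31.8, 31.1, 30.5 and 25.0 in AdCKO. Control 4 overlapped with AdCKO 5, and the log2 fold change of 0.32 missed the threshold (adjusted p = 0.0106). The value was 0.79 with 1 common total (adjusted p = 2.78e-05), 0.061 with quantile normalization (adjusted p = 0.593) and 0.27 in AdCKO 3 and 5 alone (adjusted p = 0.122). The within-library ratio of Mbtps1 to Mbtps2 fell by 0.64 (95% interval -0.96 to -0.32, exact permutation p = 0.0079, adjusted 0.026). This ratio stood at -0.63 with 1 common total, but at -0.30 and short of the threshold with quantile normalization. Of the annotated Mbtps2 exon bases, 28.4% are shared with Yy2 on the same strand, and the share among the counted bases is not known.

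The ERAD genes did not move as a block under the authors' normalization. Of 11 listed, 10 were tested, 2 were called higher, 1 lower and 7 were not called, with a median log2 fold change of 0.032. With 1 common total in every library 9 of the 10 tested, all but Herpud1, were called higher, as were 60.6% of all tested genes. Edem1, a lectin that directs misfolded glycoproteins to degradation, measured 97.4, 104, 94.0, 100.1 and 98.3 in Control and 169, 158, 184, 156 and 177 in AdCKO. The Control libraries lay within a narrow band, and every AdCKO library was higher than all of them. Edem1 rose 1.71 times (log2 fold change 0.77, SE 0.065, adjusted p = 7.71e-07). The other Edem genes did not follow. Edem2, which trims the first mannose of the glycan, measured 87.9, 99.4, 102, 81.4 and 90.0 in Control and 88.6, 83.3, 85.1, 102 and 95.4 in AdCKO. Edem3, which trims further mannoses, measured 52.1, 47.2, 46.3, 56.5 and 54.2 in Control and 48.1, 56.0, 58.2, 53.4 and 55.3 in AdCKO. Both had overlapping groups, with log2 fold changes of -0.019 (95% interval -0.20 to 0.16) and 0.080 (-0.092 to 0.25). The ratio of Edem1 to Edem2 rose by 0.78 (95% interval 0.54 to 1.03) and that to Edem3 by 0.69 (0.50 to 0.87), each with an exact permutation p of 0.0079 (adjusted 0.026).

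Sel1l and Syvn1 encode the core of the main ERAD ligase, SYVN1 (HRD1) being the ubiquitin ligase and SEL1L its adaptor. Sel1l measured 148, 134, 152, 124 and 127 in Control and 171, 184, 185, 187 and 175 in AdCKO. Syvn1 measured 139.6, 129, 140.4, 151 and 149 in Control and 159, 173, 150.2, 177 and 177 in AdCKO. All AdCKO libraries were above all Control libraries for Sel1l, whereas for Syvn1 AdCKO 3 fell within the Control range. Sel1l rose by 0.40 (SE 0.070, adjusted p = 0.000322), and by the same 0.40 in AdCKO 3 and 5 alone, where it just missed the threshold (adjusted p = 0.0108). Syvn1 just missed it in the full comparison (0.24, 95% interval 0.082 to 0.39, adjusted p = 0.0106) and passed it without AdCKO 3, with 1 common total (0.71) and with quantile normalization (0.30). Their ratio moved by 0.16 (95% interval -0.064 to 0.39). Os9, a lectin that brings glycoproteins to SEL1L, ranged from 166 to 188 (Control) and from 167 to 220.0 (AdCKO) with a change of 0.17 (95% interval 0.0031 to 0.35, adjusted p = 0.0684), and it too passed without AdCKO 3.

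Herpud1 went the other way. It encodes a short-lived ER membrane protein that gathers the ligase complex, and it is a known target of ATF4 and of the ATF6 arm. Herpud1 measured 524, 438, 441, 452 and 463 in Control and 301, 338, 319, 305 and 391 in AdCKO. Every AdCKO library lay below every Control library, with Control 1 the highest of its group and AdCKO 5 the nearest of the other. Herpud1 fell by 0.49 on the log2 scale (SE 0.084, adjusted p = 0.000247), to 0.71 of the Control mean. It was called lower also with quantile normalization (-0.32, adjusted p = 0.00641), stood at -0.0097 with the same total in every library (adjusted p = 0.915), where the median of all genes stood at 0.46, and at -0.39 in AdCKO 3 and 5 alone (adjusted p = 0.0139). Its promoter, shown above, holds the ERSE-II and the C/EBP-ATF composite.

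The derlins form part of the channel through which ERAD substrates leave the ER. Derl1, the most abundant ERAD gene in both groups, measured 589, 763, 659, 791 and 753 in Control and 633, 657, 633, 711 and 585 in AdCKO. Derl2 ranged from 70.4 to 82.5 (Control) and from 67.7 to 82.3 (AdCKO). Both had overlapping groups and no call, with changes of -0.14 (95% interval -0.33 to 0.059) and -0.016 (-0.18 to 0.14). Derl3, which is low here and is known for its expression in secretory cells, measured 4.98, 4.91, 4.80, 5.16 and 4.81 in Control and 6.94, 7.66, 5.21, 7.53 and 7.001 in AdCKO. Its groups did not overlap, although AdCKO 3 stood barely above Control 4 (exact two-sided permutation p = 0.0079, the smallest that 5 against 5 can give). The ratio of Derl1 to Derl3 fell by 0.54 (95% interval -0.80 to -0.27, exact permutation p = 0.016, adjusted 0.04), a direction that turned under quantile normalization (0.058). Vcp (p97, the ATPase that pulls substrates out of the membrane) ranged from 459 to 490.3 (Control) and from 393 to 469 (AdCKO), with 4 AdCKO libraries below all Control libraries and no call (-0.16, 95% interval -0.30 to -0.031, adjusted p = 0.032).

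In the group of translocation, export and UFMylation genes 4 of 7 were called higher, 0 lower and 3 were not called, with a median log2 fold change of 0.35. Sec24d had the largest change of all members. It encodes a cargo-binding subunit of the COPII coat, which forms the vesicles that leave the ER, and lies at chr3:122970414-123068554 in mm9. Sec24d measured 22.8, 17.9, 27.4, 27.4 and 20.8 in Control and 74.8, 64.4, 70.3, 78.9 and 84.5 in AdCKO. The lowest AdCKO library was above 2 times the highest Control library. Sec24d rose 3.21 times (log2 fold change 1.65, SE 0.12, adjusted p = 2.52e-07) and by 1.70 in AdCKO 3 and 5 alone (adjusted p = 2.57e-05). An overlap with the antisense gene Mettl14 covers 8.38% of its annotated exon bases.

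The subunits of the Sec61 channel, through which new chains enter the ER, diverged. Sec61a1, the pore subunit, measured 203, 220.4, 215, 204 and 206 in Control and 299, 262, 265, 310.2 and 326 in AdCKO. Sec61b, a small accessory subunit, measured 229.8, 249.998, 274, 292 and 303 in Control and 259, 280.3, 220.0, 284 and 349 in AdCKO. The groups were apart for Sec61a1 and intermingled for Sec61b. Sec61a1 rose by 0.47 (SE 0.073, adjusted p = 0.000107), while Sec61b (0.036, 95% interval -0.22 to 0.29) and the other small subunit Sec61g (17.1 to 22.2 in Control, 18.3 to 25.3 in AdCKO, 0.16, 95% interval -0.091 to 0.40) were not called. The ratio of Sec61a1 to Sec61b rose by 0.44 (95% interval 0.18 to 0.69, exact permutation p = 0.0079, adjusted 0.026).

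Ssr1 and Ssr3 encode subunits of the translocon-associated protein complex, which sits beside the channel and helps some chains to enter. Ssr1 measured 60.1, 57.0, 60.6, 57.7 and 66.6 in Control and 88.1, 82.9, 99.2, 94.1 and 81.9 in AdCKO. Ssr3 measured 634, 666, 634, 593 and 595 in Control and 729.9, 737, 790.1, 852 and 865 in AdCKO. Neither had overlapping groups. Ssr1 rose by 0.55 (SE 0.074, adjusted p = 3.26e-05) and Ssr3 by 0.35 (SE 0.070, adjusted p = 0.000928). Ufm1, the modifier itself, measured 70.1, 76.1, 71.5, 73.8 and 75.9 in Control and 61.5, 65.2, 65.7, 66.0 and 63.3 in AdCKO. All AdCKO libraries lay below all Control libraries, so that Ufm1 is the third member with this separation, but its change of -0.19 (SE 0.057) just missed the threshold (adjusted p = 0.0111). The call depended on the scaling: Ufm1 was called higher with 1 common total (0.29, adjusted p = 0.000691) and lower with quantile normalization (-0.25, adjusted p = 0.00267). Relative to the median of all genes, Ufm1 stood at -0.17 under each of these scalings.

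Ratios between paralogs, subunits or partners within a library, taken on log2(value + 1), were compared for 20 pairs in all, with an exact two-sided permutation test adjusted over the 20. For 8 pairs the change passed an adjusted p of 0.05, with 5 ratios that rose and 3 that fell, all of them given above. The direction of the 8 was the same in every fit that left out 1 library. Without Control 2, Control 5, AdCKO 2 or AdCKO 4 none of the 8 passed, with an adjusted p of 0.0529 to 0.0794. Dnajc3 to Dnajc10 and Derl1 to Derl3, whose groups overlapped, passed in only 2 of the 10 fits, and each of the others in 6. With 5 against 4 libraries the smallest exact p is 0.0159, which passes after adjustment over 20 pairs only where at least 7 pairs share it. For the ratios that passed in 6 fits the adjusted p was at most 0.0529, so a call lost there does not speak of a smaller change. Dnajc3 to Dnajc10 and Derl1 to Derl3 also missed the threshold in fits where other ratios passed it, so this limit does not cover them. The other 12 pairs did not pass. Of these, Manf to Creld2 (0.50, 95% interval 0.029 to 0.97) and Derl2 to Derl3 (-0.41, -0.73 to -0.096) came nearest, both with an adjusted p of 0.087, as did Os9 to Sel1l (-0.22, -0.45 to 0.0053). Manf to Creld2 passed with a pseudocount of 10 (0.51, adjusted p = 0.0397) and with quantile normalization (0.66, adjusted p = 0.0227). For Ssr1 to Ssr3 the change was 0.21 (-0.0055 to 0.42), for Dnajb9 to Dnajb11 0.25 (-0.072 to 0.58), for Derl1 to Derl2 -0.12 (-0.38 to 0.14), for Edem2 to Edem3 -0.099 (-0.42 to 0.22) and for Sec61b to Sec61g -0.12 (-0.60 to 0.35).

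**Figure D4:**
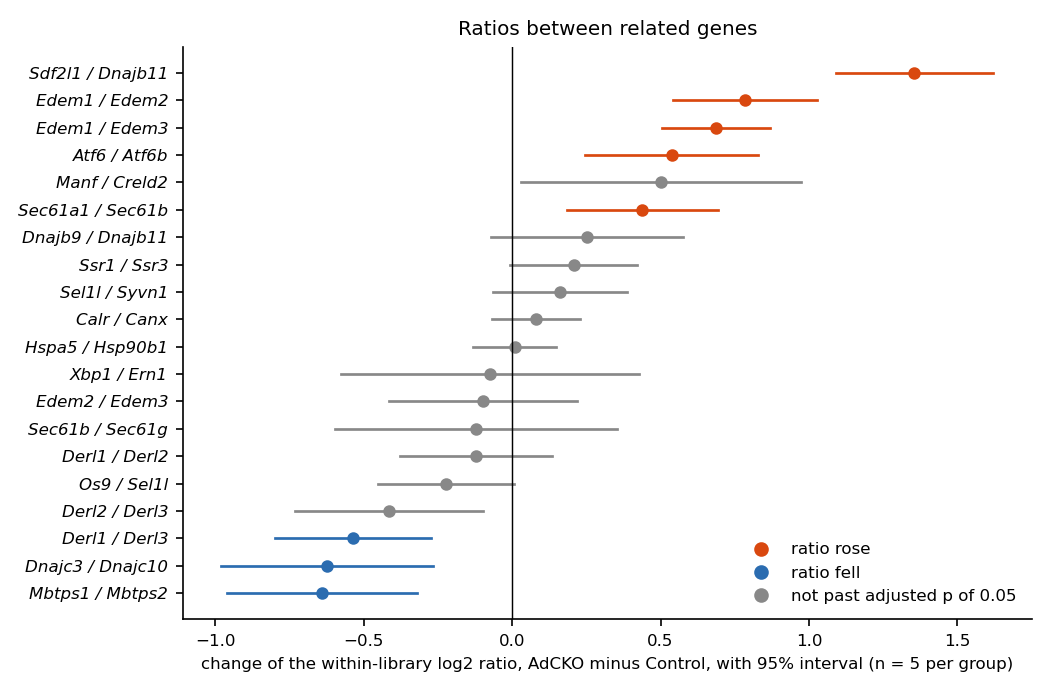
Change of the log2 ratio of related genes within a library, AdCKO minus Control, with 95% intervals (5 libraries in each group) for 20 pairs. The 5 ratios in orange rose and the 3 in blue fell past an adjusted p of 0.05, from Sdf2l1 to Dnajb11 at 1.36 down to Mbtps1 to Mbtps2 at -0.64, and the grey pair Hspa5 to Hsp90b1 sits at 0.009.

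Within AdCKO the members did not follow 1 library. AdCKO 5 held the highest AdCKO value for 12 members, AdCKO 4 for 10, AdCKO 3 for 7, AdCKO 2 for 6 and AdCKO 1 for 1. The lowest value fell in AdCKO 1 for 12 members, in AdCKO 3 and AdCKO 5 for 9 each, in AdCKO 2 for 4 and in AdCKO 4 for 2. The median over members of the log2 difference from the Control mean was 0.42 in AdCKO 4 and between 0.30 and 0.34 in the others.

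Among the members with a promoter entry, 7 of those with an ERSE were tested, of which 5 were called higher (Hspa5, Hsp90b1, Calr, Canx and Creld2) and 0 lower, with a median log2 fold change of 0.47. Dnajc3 and Syvn1 carry an ERSE too and were not called. Of the 23 tested members without an ERSE in this window, 10 were called higher and 2 lower, with a median of 0.22. Over all tested genes 25.6% were called higher and 28% lower. Members and motifs were chosen with earlier results of these data known, and members with and without an ERSE were not tested against each other. Among genes that are not members, 8 with an ERSE were tested, of which 0 were called higher and 2 lower. Of the ERSE-II pair Herpud1 fell and Dnajb11 was not called, and of the UPRE pair Sec24d rose and Vcp was not called.

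Other genes of the same pathways were followed in lists that hold none of the members. In the PERK arm and its feedback, 7 of 10 genes were called higher and 0 lower, with a median log2 fold change of 1.504 (9 and 0 with 1 common total, 7 and 0 with quantile normalization). Ddit3, the CHOP gene to which the study turns, went from 219 ± 7.97 to 1448 ± 256 (2.70, adjusted p = 3.13e-09). Atf3, a stress-induced repressor, went from 15.9 ± 2.81 to 312 ± 57.9 (4.21), Trib3, a pseudokinase induced by CHOP, from 49.9 ± 5.81 to 520.1 ± 98.3 (3.34), and Ppp1r15a (GADD34, which reverses the phosphorylation of eIF2 alpha) from 85.8 ± 8.57 to 480.3 ± 53.0 (2.47). The largest member change, 1.65 for Sec24d, is below each of these. Eif2ak3, which encodes PERK, was not called (0.18).

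Among 12 ER oxidases and disulfide isomerases, which make and reshuffle disulfide bonds, 6 were called higher and 1 lower, with a median of 0.33 (11 and 0 with 1 common total, 7 and 1 with quantile normalization). Ero1l, an oxidase, went from 52.7 ± 2.69 to 358 ± 23.1 (2.74, adjusted p = 1.25e-10), P4hb, the classical disulfide isomerase, from 285 ± 31.0 to 661 ± 98.2 (1.21) and Pdia3, the partner of calnexin and calreticulin, from 396 ± 23.2 to 614 ± 34.5 (0.63), while Pdia5 fell from 24.5 ± 2.52 to 18.3 ± 1.03 (-0.40). In the N-glycan and lectin cycle, 7 of 14 tested genes were called higher and 2 lower, with a median of 0.22 (12 and 0, then 9 and 1, under these scalings). Ostc, a subunit of the oligosaccharyltransferase, rose from 86.7 ± 8.29 to 177 ± 13.4 (1.02), and Uggt1, the folding sensor that re-glucosylates unfolded glycoproteins, from 34.8 ± 1.80 to 46.1 ± 1.96 (0.40). The cargo lectins Lman2 (758 ± 62.1 to 516 ± 18.2, -0.55) and Lman1 (226 ± 23.6 to 181 ± 9.01, -0.32) fell.

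Of 20 tested ERAD genes outside the member list, 2 were called higher and 7 lower, with a median of -0.032, whereas 14 were called higher and 1 lower with 1 common total, and 5 and 5 with quantile normalization. Rnf185, a ubiquitin ligase, rose from 133 ± 23.2 to 394 ± 95.3 (1.55), as did the conjugating enzyme Ube2j1 by a smaller step (141 ± 5.11 to 162 ± 5.41, 0.20). Ngly1, the cytosolic peptide N-glycanase, fell from 162 ± 5.99 to 108 ± 7.70 (-0.58) and Tmub1 from 109 ± 18.2 to 58.6 ± 8.598 (-0.87). UFMylation genes other than Ufm1 were called lower in 4 of 7 and higher in 1, with a median of -0.46 (0 lower and 3 higher with 1 common total, 4 and 1 with quantile normalization). Ufc1, the conjugating enzyme, fell from 424 ± 23.3 to 280.1 ± 29.8 (-0.60), as did Ddrgk1, the ER anchor of the ligase, from 726 ± 72.0 to 451 ± 72.0 (-0.70).

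Of 18 other translocon, signal recognition particle and signal peptidase genes, 3 were called higher and 1 lower, with a median of 0.10 (17 and 0 with 1 common total, 5 and 1 with quantile normalization). The signal peptidase subunits Spcs3 (55.1 ± 4.504 to 94.8 ± 9.001, 0.77) and Spcs2 (124 ± 7.53 to 188 ± 20.4, 0.60) and the translocating chain protein Tram1 (89.9 ± 6.96 to 148 ± 13.5, 0.71) rose, and Ssr4, a further subunit of the complex that holds Ssr1 and Ssr3, fell from 492 ± 46.0 to 342 ± 14.6 (-0.52). Of 10 other COPII genes, 2 were called higher and 1 lower, with a median of -0.048 (9 and 0, then 2 and 0, under these scalings). Sec24a, a paralog of Sec24d, rose from 42.7 ± 5.22 to 60.4 ± 5.32 (0.50) and the coat subunit Sec31a from 318 ± 14.3 to 409 ± 17.6 (0.36), while Preb, the exchange factor that starts coat assembly, fell from 155 ± 10.6 to 131 ± 7.85 (-0.24). Of 16 tested other ER chaperones and UPR factors, 3 were called higher and 1 lower, with a median of 0.027 (12 and 1, then 4 and 2). These were Creb3l1, an ER-bound transcription factor of secretory cells (10.5 ± 2.30 to 28.1 ± 4.45, 1.35), Wfs1, an ER membrane protein linked to calcium balance (69.3 ± 14.7 to 171 ± 28.7, 1.301), Tmbim6, an inhibitor of ER stress-induced death (2163 ± 142 to 3559 ± 199, 0.72), and, lower, Cnpy2 (386 ± 20.8 to 216 ± 14.9, -0.83). Values in these lists are group means ± SD (n = 5 in each group) with the log2 fold change, and each gene said to rise or fall passed an adjusted p of 0.01 in limma. The counts are a description beside the 25.6% and 28% of all tested genes called higher and lower, and no list was tested against another. The counts with 1 common total stand beside 60.6% higher and 9.77% lower of all tested genes. Those with quantile normalization stand beside 22.5% and 31.1%.

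**Figure D5:**
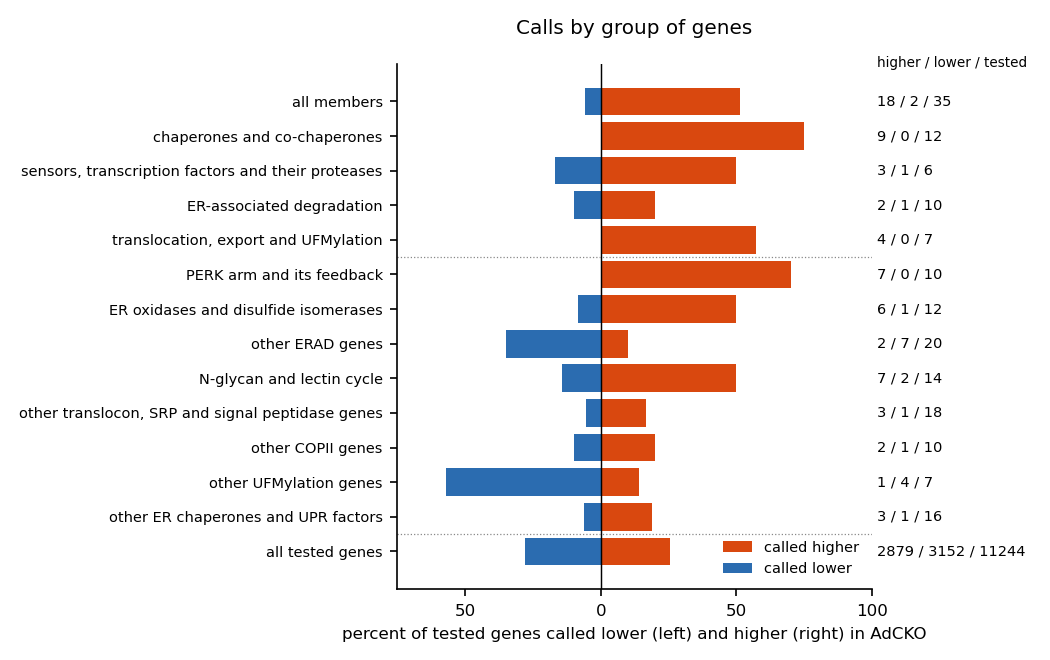
Percent of the tested genes of each list called lower (blue, to the left) and higher (orange, to the right) in AdCKO iBAT, with the counts at the right edge. The 12 chaperones (9 higher, 0 lower) and the 10 PERK arm genes (7 higher, 0 lower) lie mostly to the right, the 7 other UFMylation genes (1 higher, 4 lower) mostly to the left, and all tested genes are given in the last row.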

How the data were processed

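RNA was taken from iBAT of 5 Control and 5 AdCKO mice, and groups and replicate numbers come from the sample labels. Per the labels and the study's methods, the authors isolated polyadenylated RNA (TruSeq 2, not stated to keep strand), used STAR with mm9 for mapping, iRNA-seq for exon counts and DESeq2 for normalization (versions not given in the sources used here). What the authors deposited for 15075 genes is a signal, the normalized reads divided by the kb of exon counted for 1 RefSeq transcript. Low values may have been moderated by a step not given in the sources used here, which would shrink the changes of low genes. Counts cannot be had, as no value is 0 and values do not fall on whole reads. Under the best of a range of size factors for each library, 22.3% to 23.6% of low values lay within 0.1 of a whole read step. By chance a single fixed factor gives 20%. Depth before normalization is therefore unknown, no counting error is given, and precision is the spread between 5 mice. Overlapping or antisense genes cannot be told apart. Fold changes and adjusted p-values that the authors deposited were not used.

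Values were analysed as log2(value + 1) with limma 3.58.1 in R 4.3.3 (lmFit, eBayes with an intensity trend, two-sided, Benjamini-Hochberg), for 11244 genes whose mean reached 10 in Control or AdCKO, with a threshold of 0.01 for the adjusted p. The script was tested on simulated data of 11244 genes. At this threshold 92 of 100 changes of 1 on the log2 scale were recovered, and 38 of 100 changes of 0.5, with 0 false calls. Most changes of 0.5 were thus missed there, although far fewer genes changed in the simulation than were called here. Single values and ratios were compared with exact two-sided permutation tests (smallest p 0.0079), and the intervals of ratios use the pooled SD. Promoters are those of RefSeq on GRCm38.p6, exon overlaps those of an annotation on mm9. Overlaps are shares of all annotated exon bases, which can exceed the counted bases (10105 against 4799 for Mbtps2). Plots are from matplotlib 3.10.9 (Python 3.11.15). Members, lists, pairs and motifs were chosen with earlier results of these data known. Every member is accounted for. Per-library values are given for the members with the smallest p of each role and direction, those against their role, families and members below the filter. From the other lists at most 3 called genes with the smallest p and called genes against the list are named, with Crls1, Ddit3 and, for the last list, all 4 calls. Eif2ak3 and Retn were named after their values were seen, and 1 called gene that the rule names is not reported here. Alternatives were pseudocounts of 0.1 and 10, all genes unfiltered or with a mean of 1 over all samples, 1 common total, quantile normalization, no trend, a robust trend, a replicate block, leaving out each library, an adjusted p of 0.05, and the 3 libraries with muscle markers left out (added after seeing the data, over 10 times the highest Control sum).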

Additional observations from a re-analysis of the deposited data

Results flagged for a closer look

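In groups of 5 libraries, 3 of the 72 groups of member values held a library far from the other 4 by Dixon's criterion, where chance gives about 3.6. Calr measured 1078 in Control 1, against 1192 to 1232 in the other Control libraries. Herpud1 measured 524 in Control 1, against 438 to 463 in the others, and was called lower also without Control 1 (log2 fold changes between -0.55 and -0.44 over the 10 fits that leave out 1 library). Hyou1 measured 171 in AdCKO 5, against 138 to 142 in the other AdCKO libraries.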

How the results depend on the processing

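All 18 members called higher were above 0 under every setting tried. With the same total in every library, 33 members were called higher and 0 lower, with a members' median of 0.83, 6811 of all tested genes were called higher and 1098 lower, and the values of Mbtps1 (0.16), Edem2 (0.46), Derl1 (0.34), Derl2 (0.46), Vcp (0.32) and Ufm1 (0.29) turned positive. Such a scaling raises the AdCKO values by construction. With quantile normalization the members' median was 0.41, and the sign turned for Edem3 (-0.033), Derl1 (0.077), Vcp (0.021) and Sec61g (-0.15) and for the ratios Xbp1 to Ern1 (0.33), Edem2 to Edem3 (0.0094), Derl1 to Derl2 (0.14), Derl1 to Derl3 (0.058), Sec61b to Sec61g (0.33) and Ssr1 to Ssr3 (-0.071). A pseudocount of 10 turned the ratio of Xbp1 to Ern1 to 0.084 and left Derl1 to Derl3 short of the threshold (-0.31, adjusted p = 0.0529). An adjusted p of 0.05 gave 20 members higher and 4 lower. In AdCKO 3 and 5 alone no member was called lower (0) and the median was 0.27. The cause of the other shifts was not tested.

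Leaving out 1 library at a time gave 17 to 19 members called higher and 2 lower, a median of 0.32 to 0.38, and 2648 to 2874 of all tested genes higher and 2879 to 3066 lower. 17 of the 18 calls were kept in all 10 such fits, and Dnajb9 was the exception. Values near 0 changed sign among these fits: Dnajc3 (-0.011 to 0.049), Edem2 (-0.062 to 0.019), Derl2 (-0.054 to 0.019), Sec61b (-0.049 to 0.12) and the ratios Hspa5 to Hsp90b1 (-0.022 to 0.042), Xbp1 to Ern1 (-0.18 to 0.068) and Sec61b to Sec61g (-0.27 to 0.0066). Control and AdCKO share replicate numbers in the labels, but the deviations of same-numbered libraries correlated between -0.27 and 0.098, and no library correlated best with its own number. With the replicate number as a block, 17 members were called higher and 2 lower, and Dnajb9 was not called (adjusted p = 0.0221).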
